A study of Mus musculus with 10 samples.

Results

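Macrophages and monocytes are described here by 40 genes that they express or that, like Csf1 and Il34, encode signals to them, in 5 Ezh2-/- and 5 Ezh2+/+ mammary tumours. The genes were chosen by name, but with earlier results of these data known. Receptors, adaptors, enzymes and transcription factors of these cells are among them, and 40 of 40 had a probe set that carries their symbol alone. They are 40 of 22180 genes tested, each read from its brightest probe set over the 10 arrays. 1 of them, Maf, had more than 1 such probe set. All mice were Tet-ON PyVmT females on an FVB background, in which the MMTV promoter drives the reverse tetracycline transactivator in the mammary epithelium. With doxycycline in the water, these cells switch on a transgene for Cre recombinase and the polyomavirus middle T antigen, in the controls as well. The Ezh2-/- mice also carried conditional Ezh2 alleles, so that Cre removed the gene, which encodes the H3K27 methyltransferase of PRC2, in the epithelial cells, while the Ezh2+/+ mice kept it. By this design macrophages are not a target of Cre. The arrays read RNA of whole frozen tumours taken at the tumour burden endpoint. The study reports a significantly later tumour onset in Ezh2-/- mice. Any difference in age or time on doxycycline that follows cannot be told apart from genotype here.

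Tissue macrophages come from embryonic precursors and from blood monocytes, and they live on signals through the receptor Csf1r, whose ligands are Csf1 and Il34. They take up dead cells and debris through scavenger and Fc receptors, digest them in lysosomes and, when activated, make reactive oxygen and nitric oxide. In mammary tumours they are among the most frequent leukocytes, and in PyVmT models they have been linked to invasion and spread. Several of the genes are also used by other cells. Fibroblasts and endothelium, among other cells, make Csf1 and Il34, most cells make Ctsb, T cells use Maf, and neutrophils share Clec4e, Clec4d, Fcgr3 and the NADPH oxidase.

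On the arrays, values were normalised by the authors and taken as log2, and a log2 fold change is the Ezh2-/- mean minus the Ezh2+/+ mean. Ezh2 itself ranged from 6.36 to 6.50 in Ezh2-/- and from 6.98 to 7.69 in Ezh2+/+ tumours, and fell by 1.03 (standard error, SE, 0.14; adjusted p = 0.000770 in limma). Array medians lay at 4.35 to 4.46 for Ezh2-/- and 4.54 to 4.67 for Ezh2+/+. The defining genes of macrophages were present in each tumour, with Cd68 at 7.81 or more, Adgre1 at 5.59 or more and Csf1r at 6.54 or more. Since whole tumours were measured, a change in the number of macrophages and a change in RNA per macrophage cannot be told apart. The labels call the tumours biological replicates without naming their mice, so the p-values rest on spread from tumour to tumour.

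Of the macrophage and monocyte genes, a minority passed the adjusted threshold, most of them upwards in Ezh2-/- tumours, and the largest fall was that of Arg1. At an adjusted p under 0.05 from limma (two-sided, Benjamini-Hochberg over all genes), 9 of 40 were higher and 2 lower, and 29 did not pass. The shares were 22.5% and 5.0% of the 40, against 7.29% and 7.56% of all genes. Since this list and the others below were chosen with earlier results known, such shares are descriptions and not tests of enrichment. The 9 were Gpnmb, Folr2, Adgre1, Maf, Csf1r, Laptm5, Siglec1, Cd14 and Csf1, and the 2 were Arg1 and Clec4e. The log2 fold change was above 0 in 35 of 40 genes, as it was in 53.3% of all genes, and its median was 0.42, against 0.03 over all genes. The genotypes did not overlap in Maf, Laptm5 and Siglec1, where each Ezh2-/- tumour was above each Ezh2+/+ tumour, and in Arg1, where each was below (5.05% of all genes did not overlap upwards and 6.63% downwards). Of the 29 that did not pass, 12 had an unadjusted p under 0.05 in limma. Of all 40 genes 23 did, against 33.5% of the 22180 genes tested, so that not passing is not the same as no change. In either direction 11 of 40 passed, against 14.8% of all genes.

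The count moved with the processing. After quantile normalization 8 of 40 were higher and 1 lower, against 6.03% and 3.98% of all genes. After cyclic loess 6 of 40 were higher and 1 lower, against 4.93% and 4.49% of all genes. Centring arrays on their medians shifted the median of all genes to 0.199, and then 22 of 40 were higher and 2 lower, against 23.5% and 4.18% of all genes. In an unmoderated test per gene, of the kind the study's methods name, 5 of 40 were higher and 1 lower, against 3.89% and 5.2% of all genes after Benjamini-Hochberg adjustment. At an unadjusted p under 0.05 in that test with a change over 1.5-fold, 11 of 40 were higher and 2 lower, against 4.79% and 4.28% of all genes.

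**Figure D1:**
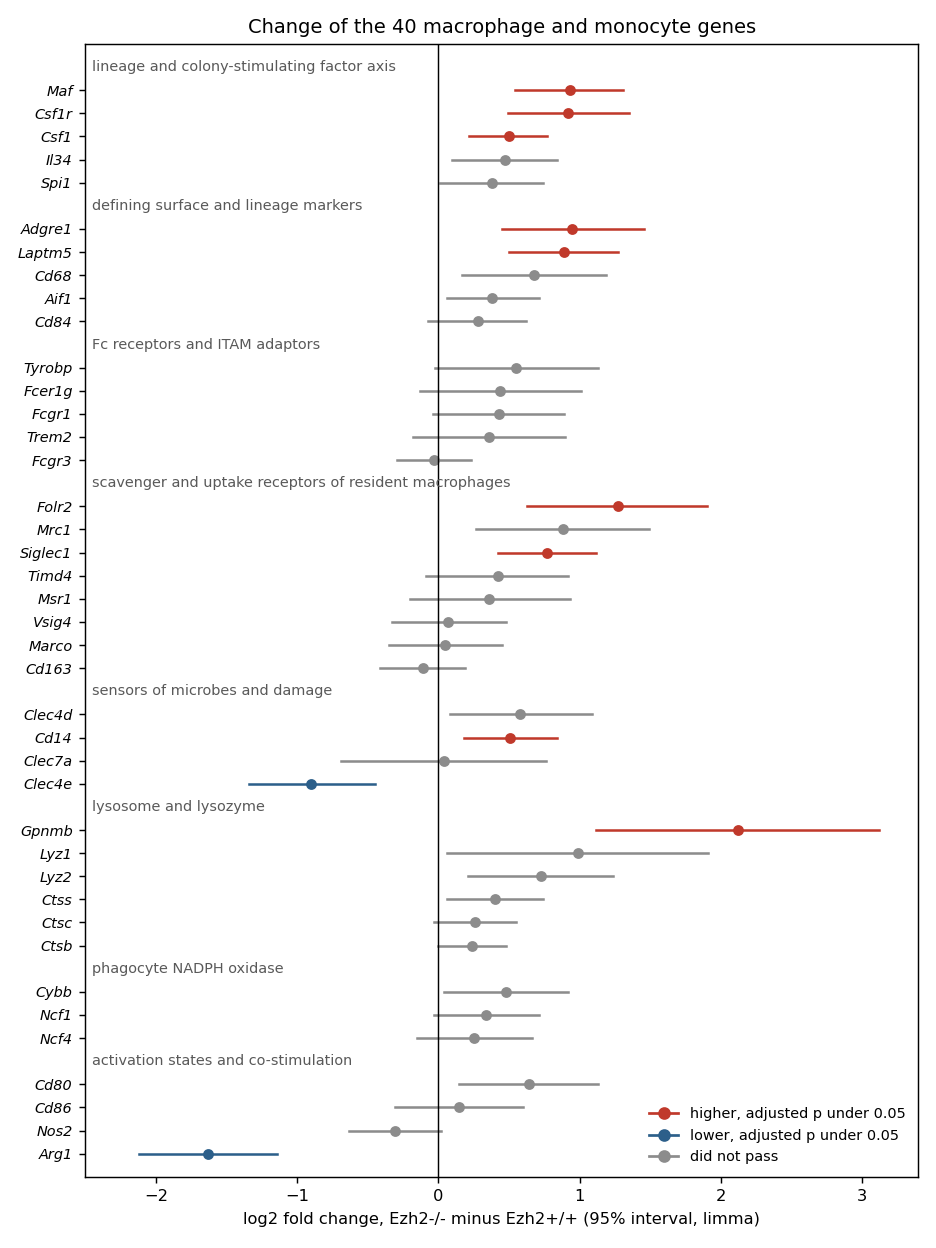
Log2 fold change (Ezh2-/- minus Ezh2+/+) of the 40 genes on the x axis, with the 95% interval from limma, grouped by role. Red marks the 9 genes that were higher and blue the 2 that were lower at an adjusted p under 0.05, and grey the 29 that did not pass. Gpnmb lies farthest to the right at 2.12 and Arg1 farthest to the left at −1.63.

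The receptor of the colony-stimulating factor axis rose together with its ligand Csf1. Csf1r, the receptor tyrosine kinase on which macrophages depend, was at 7.90, 8.19, 7.62, 8.31 and 7.69 in Ezh2-/- tumours 1 to 5 and at 6.91, 7.64, 6.94, 6.54 and 7.09 in Ezh2+/+ tumours 1 to 5. The genotypes met at a single point, where Ezh2+/+ tumour 2 lay at the level of Ezh2-/- tumour 3, and Ezh2+/+ tumour 4 was the lowest of all. The means were 7.94 ± 0.30 (SD, n = 5) against 7.02 ± 0.40 (SD, n = 5), a log2 fold change of 0.92 (SE 0.20, adjusted p = 0.0113). Csf1 encodes the main ligand and was at 7.22, 7.30, 7.09, 7.2 and 6.72 in Ezh2-/- and 6.56, 6.83, 6.65, 6.59 and 6.42 in Ezh2+/+ tumours, so that 4 of 5 Ezh2-/- tumours lay above all Ezh2+/+ tumours and Ezh2-/- tumour 5 lay among them. Its log2 fold change was 0.50 (SE 0.13, adjusted p = 0.0237). The call for Csf1 was lost after quantile normalization (adjusted p = 0.0641), after cyclic loess (adjusted p = 0.0737) and without Ezh2-/- tumour 1, 2 or 4 or Ezh2+/+ tumour 5 (adjusted p = 0.0544 to 0.0611), and the gene was under the 1.5-fold threshold.

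Il34, the second ligand, did not pass. It was at 5.82, 5.45, 4.99, 5.71 and 5.09 in Ezh2-/- and 5.02, 5.06, 4.64, 5.16 and 4.84 in Ezh2+/+ tumours. Ezh2-/- tumours 1, 2 and 4, which were the highest for Csf1, were also the highest here. Ezh2-/- tumours 3 and 5 lay within the Ezh2+/+ range, although Ezh2-/- tumour 3 was above that range for Csf1. The log2 fold change was 0.47 (SE 0.17, adjusted p = 0.0800), with a 95% interval of 0.10 to 0.84. Il34 passed after median centring, with the replicate number as a block and without Ezh2-/- tumour 3 or 5. The lowest adjusted p of the alternatives was 0.023.

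Of the transcription factors, Maf passed and Spi1 did not. Maf encodes a bZIP factor of mature macrophages, also used by T helper cells, and was at 6.19, 5.66, 5.62, 6.47 and 5.87 in Ezh2-/- and 5.02, 5.43, 4.80, 4.82 and 5.11 in Ezh2+/+ tumours. The lowest Ezh2-/- tumour, at 5.62, was above the highest Ezh2+/+ tumour, at 5.43, and Ezh2-/- tumours 1 and 4 were the highest. The means were 5.96 ± 0.36 (SD, n = 5) against 5.04 ± 0.26 (SD, n = 5), and the log2 fold change was 0.93 (SE 0.18, adjusted p = 0.00710). Spi1, which encodes PU.1, the factor that sets up the myeloid lineage, had means of 6.64 and 6.27 and a log2 fold change of 0.38 (SE 0.17, adjusted p = 0.138), with Ezh2-/- tumour 5 at 6.92 the highest and Ezh2+/+ tumour 3 at 5.91 the lowest.

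**Figure D2:**
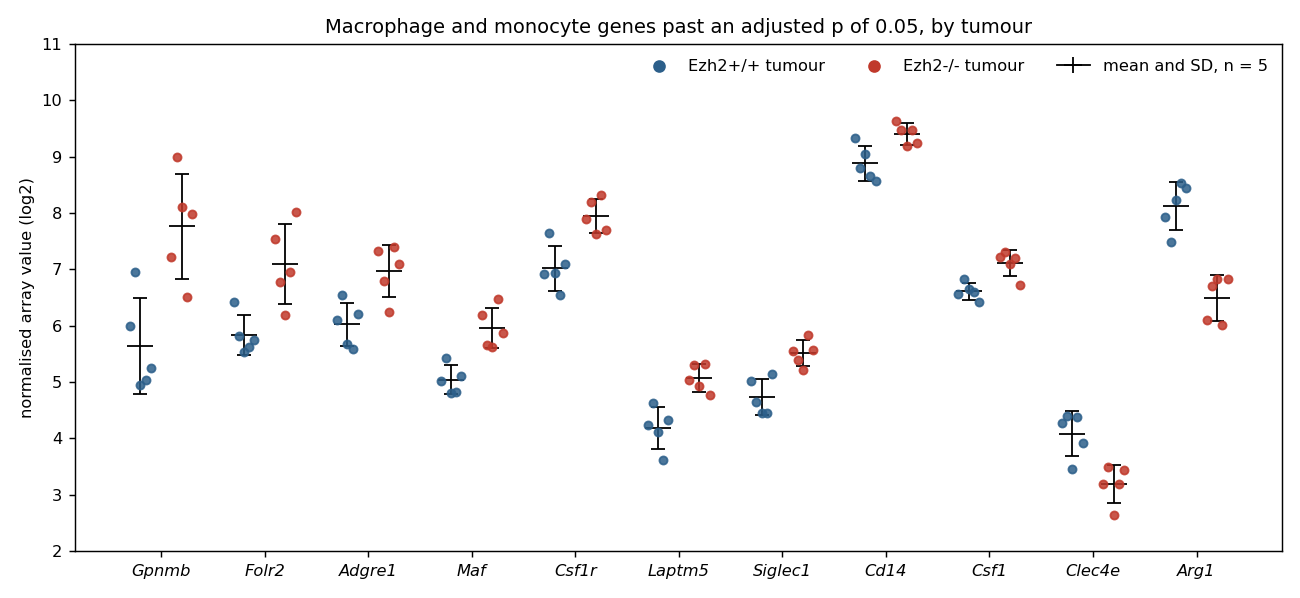
Normalised array values (log2) of the 11 macrophage and monocyte genes that passed an adjusted p under 0.05, with a point for each tumour (blue Ezh2+/+, red Ezh2-/-) and the mean and SD of 5 tumours in black. The points of the genotypes are apart for Maf, Laptm5, Siglec1 and Arg1 and overlap in the other 7 genes.

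Of the surface and lineage markers, Adgre1 and Laptm5 rose, and Cd68, Aif1 and Cd84 did not pass. Adgre1 encodes F4/80, the adhesion receptor by which mouse macrophages are usually recognised, and was at 7.33, 6.80, 6.24, 7.40 and 7.09 in Ezh2-/- and 6.10, 6.54, 5.67, 5.59 and 6.20 in Ezh2+/+ tumours. Only Ezh2-/- tumour 3 reached into the Ezh2+/+ range. The means were 6.97 ± 0.47 (SD, n = 5) against 6.02 ± 0.39 (SD, n = 5), and the log2 fold change was 0.95 (SE 0.23, adjusted p = 0.0198). The call was lost without Ezh2-/- tumour 4 (adjusted p = 0.0542), without Ezh2-/- tumours 1 and 5 together (adjusted p = 0.0657), after cyclic loess (adjusted p = 0.0541) and in the adjusted unmoderated test (adjusted p = 0.0655).

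Laptm5, a lysosomal membrane protein of blood cells, was at 5.03, 5.30, 4.92, 5.32 and 4.76 in Ezh2-/- and 4.23, 4.62, 4.12, 3.61 and 4.32 in Ezh2+/+ tumours. The groups did not overlap, with Ezh2-/- tumours 2 and 4 at the top and Ezh2+/+ tumour 4 at the bottom. The means were 5.07 ± 0.24 (SD, n = 5) against 4.18 ± 0.37 (SD, n = 5), and the log2 fold change was 0.89 (SE 0.18, adjusted p = 0.00863). Cd68, a lysosomal glycoprotein of macrophages, had a log2 fold change of 0.68 (adjusted p = 0.0694). Its Ezh2+/+ tumours spread from 7.81 to 9.15, with Ezh2+/+ tumours 1 and 2 inside the Ezh2-/- range of 8.66 to 9.28, and without Ezh2+/+ tumour 1 the call was made (adjusted p = 0.0186). Aif1, the calcium-binding protein Iba1, had a difference of 0.38 (adjusted p = 0.0978) and Cd84, an adhesion receptor of the SLAM family, one of 0.28 (adjusted p = 0.240).

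Of the 5 genes of Fc receptors and their adaptors, 0 passed in limma, against 14.8% of all genes. An unadjusted p under 0.05 was found in 0 of 5, against 33.5% of all genes. After adjustment in the unmoderated test 0 of 5 passed. With 5 genes, a count of 0 cannot set the group apart from all genes. With the replicate number as a block in limma, Fcgr1 passed (adjusted p = 0.0352). Fcer1g and Tyrobp encode the ITAM adaptors through which these receptors signal, and on the log2 scale their differences were 0.44 (adjusted p = 0.258) for Fcer1g and 0.55 (adjusted p = 0.166) for Tyrobp. The high-affinity IgG receptor gene Fcgr1 had a difference of 0.43 (adjusted p = 0.181) and the lipid receptor gene Trem2 one of 0.36 (adjusted p = 0.334). Ezh2-/- tumour 5 had the highest value of all 10 tumours in these 4 genes, for example 10.29 for Fcer1g, where the other Ezh2-/- tumours were at 8.68 to 9.54, and Ezh2+/+ tumours 3 and 4 were the lowest Ezh2+/+ tumours in each. Fcgr3, a low-affinity IgG receptor, was at 5.75, 5.45, 5.32, 5.52 and 5.76 in Ezh2-/- and 5.85, 5.63, 5.60, 5.44 and 5.44 in Ezh2+/+ tumours. The ranges lay on each other, and the log2 fold change was −0.03 (SE 0.12, adjusted p = 0.881) with a 95% interval of −0.29 to 0.23, and it turned to 0.14 after median centring and was also above 0 without Ezh2-/- tumour 3 or Ezh2+/+ tumour 1.

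The receptors by which resident macrophages take up material included 2 genes that rose and 6 that did not pass. Folr2, a folate receptor gene of perivascular and resident macrophages, was at 7.54, 6.78, 6.18, 6.95 and 8.01 in Ezh2-/- and 6.42, 5.82, 5.54, 5.62 and 5.74 in Ezh2+/+ tumours. Ezh2-/- tumour 5, at 8.01, and Ezh2-/- tumour 1, at 7.54, were highest, and Ezh2-/- tumour 3 alone lay within the Ezh2+/+ range. The means were 7.09 ± 0.71 (SD, n = 5) against 5.83 ± 0.35 (SD, n = 5), a log2 fold change of 1.27 (SE 0.29, adjusted p = 0.0161), which is 2.40-fold. Without Ezh2-/- tumours 1 and 5 together the log2 fold change was 0.81 and still passed (adjusted p = 0.0335), while in the adjusted unmoderated test the call was lost (adjusted p = 0.0611).

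Siglec1 encodes sialoadhesin, a lectin that binds sialic acid on other cells, and was at 5.55, 5.39, 5.22, 5.83 and 5.57 in Ezh2-/- and 5.02, 4.65, 4.45, 4.44 and 5.14 in Ezh2+/+ tumours. Each Ezh2-/- tumour was above each Ezh2+/+ tumour, though the gap between 5.22 and 5.14 was small. The means were 5.51 ± 0.23 (SD, n = 5) against 4.74 ± 0.32 (SD, n = 5), and the log2 fold change was 0.77 (SE 0.16, adjusted p = 0.0107). Mrc1, the mannose receptor CD206, which lymphatic and some other endothelial cells also express, was at 7.42, 6.59, 6.53, 7.62 and 6.63 in Ezh2-/- and 5.65, 6.74, 5.73, 5.68 and 6.60 in Ezh2+/+ tumours. Ezh2-/- tumours 1 and 4 stood above the rest, and Ezh2+/+ tumours 2 and 5 lay with Ezh2-/- tumours 2, 3 and 5. The log2 fold change of 0.88 (SE 0.28, adjusted p = 0.0530) did not pass, and it passed without Ezh2+/+ tumour 2 (adjusted p = 0.0303) or Ezh2-/- tumour 5 (adjusted p = 0.0445).

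Cd163, the receptor for haptoglobin and haemoglobin, was at 4.68, 4.31, 4.31, 4.84 and 4.78 in Ezh2-/- and 4.90, 4.48, 4.54, 4.86 and 4.69 in Ezh2+/+ tumours. The ranges overlapped, and the log2 fold change was −0.11 (SE 0.14, adjusted p = 0.600) with a 95% interval of −0.41 to 0.19, with a sign that turned after quantile normalization, median centring and cyclic loess. The scavenger receptor genes Msr1 and Marco had differences of 0.36 (adjusted p = 0.342) and 0.05 (adjusted p = 0.881). Timd4, a receptor for phosphatidylserine on dying cells, had a difference of 0.42 (adjusted p = 0.230) and Vsig4, a complement receptor, one of 0.07 (adjusted p = 0.817), and both were among the 40% dimmest genes of the arrays. The signs for Marco and Vsig4 turned without Ezh2-/- tumour 5, and also without Ezh2+/+ tumour 2 for Marco and Ezh2+/+ tumour 3 for Vsig4.

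Of the sensors of microbes and damaged cells, Cd14 rose, Clec4e fell, and Clec7a and Clec4d did not pass. Cd14, the co-receptor that hands lipopolysaccharide to Tlr4, was at 9.63, 9.47, 9.18, 9.47 and 9.24 in Ezh2-/- and 9.33, 8.80, 9.05, 8.66 and 8.57 in Ezh2+/+ tumours. Ezh2+/+ tumour 1, at 9.33, lay within the Ezh2-/- range, and the other 4 Ezh2+/+ tumours were below it. The log2 fold change was 0.51 (SE 0.15, adjusted p = 0.0422), and the call was lost after quantile normalization (adjusted p = 0.0650) and cyclic loess (adjusted p = 0.0884), in the unmoderated test with adjustment (adjusted p = 0.0818) and at its unadjusted thresholds, and without Ezh2-/- tumours 1 and 5 (adjusted p = 0.0806). It held without Ezh2-/- tumour 3 or 5 or Ezh2+/+ tumour 1 and was lost in the other 7 fits that left a tumour out (adjusted p = 0.0530 to 0.0983).

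Clec4e encodes Mincle, a C-type lectin for mycobacterial and cell-derived glycolipids that macrophages and neutrophils carry. It was at 3.19, 3.49, 2.63, 3.18 and 3.43 in Ezh2-/- and 4.27, 4.40, 3.46, 4.37 and 3.91 in Ezh2+/+ tumours. Ezh2-/- tumour 3 was lowest, 4 of 5 Ezh2-/- tumours lay below all Ezh2+/+ tumours and Ezh2-/- tumour 2 lay just above Ezh2+/+ tumour 3. The means were 3.19 ± 0.34 (SD, n = 5) against 4.08 ± 0.40 (SD, n = 5), and the log2 fold change was −0.90 (SE 0.20, adjusted p = 0.0148). The gene was among the 40% dimmest, and the call was lost after quantile normalization (adjusted p = 0.0530), after cyclic loess (adjusted p = 0.0612) and in the adjusted unmoderated test (adjusted p = 0.0521). Clec4d, which neighbours Clec4e in the genome and encodes a partner lectin, had a log2 fold change of 0.58 (SE 0.23, adjusted p = 0.104), above 0 where Clec4e was below. For Clec7a, the beta-glucan receptor Dectin-1, the log2 fold change was 0.04 (adjusted p = 0.952) with a 95% interval of −0.69 to 0.76, and its sign turned after quantile normalization, cyclic loess and array weights and without Ezh2-/- tumour 5, Ezh2+/+ tumour 3 or Ezh2+/+ tumour 4.

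Markers of neutrophils, which share Clec4e, were in part lower. Of 9 measured, 3 were lower (33.3%, against 7.56% of all genes) and 0 higher, with a median log2 fold change of −0.13. Of the 9, 6 were among the 40% dimmest genes. After quantile normalization 1 was lower, S100a9, since Retnlg and Cxcr2 lost their calls. S100a9, a calcium-binding protein abundant in neutrophils, spanned 3.36 to 4.09 in Ezh2-/- and 4.68 to 5.59 in Ezh2+/+ tumours and differed by −1.28 (SE 0.19, adjusted p = 0.00165), while the difference of its partner S100a8 was −0.40 (adjusted p = 0.564). The mean log2 value of the 9 markers was 4.11 to 4.39 in Ezh2-/- and 4.33 to 4.88 in Ezh2+/+ tumours. The part of neutrophils in the lower Clec4e and Arg1 was not tested.

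In the lysosome group, Gpnmb had the largest rise of the 40 genes. It encodes a transmembrane glycoprotein of macrophages laden with lipid or debris, which osteoclasts, pigment cells and some carcinoma cells also make, and it was at 7.21, 9.0, 8.10, 6.51 and 7.99 in Ezh2-/- and 6.0, 6.96, 4.94, 5.04 and 5.25 in Ezh2+/+ tumours. Ezh2-/- tumour 2, at 9.0, was highest and Ezh2+/+ tumours 3, 4 and 5 lay between 4.94 and 5.25, while Ezh2+/+ tumour 2, at 6.96, exceeded Ezh2-/- tumour 4, at 6.51. The means were 7.76 ± 0.94 (SD, n = 5) against 5.64 ± 0.85 (SD, n = 5), a log2 fold change of 2.12 (SE 0.46, adjusted p = 0.0121), which is 4.35-fold. The spread of this gene was wide in both genotypes, and in the unmoderated test, which borrows no spread from other genes, its adjusted p was 0.0551.

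The lysozyme genes did not pass. Lyz2, the lysozyme of macrophages and other myeloid cells, was at 10.76, 10.48, 10.24, 10.57 and 11.24 in Ezh2-/- and 10.17, 10.46, 9.50, 9.29 and 10.22 in Ezh2+/+ tumours, where 4 of 5 Ezh2-/- tumours were above all Ezh2+/+ tumours. Its log2 fold change was 0.73 (SE 0.24, adjusted p = 0.0582). Lyz2 passed after median centring, with the replicate number as a block, without Ezh2+/+ tumour 2 and at the unadjusted thresholds of the unmoderated test. Lyz1, known best from Paneth cells of the gut, was at 5.50, 4.66, 4.64, 4.95 and 7.01 in Ezh2-/- and 4.42, 4.6, 4.68, 3.26 and 4.85 in Ezh2+/+ tumours, with Ezh2-/- tumour 5 at the top and Ezh2+/+ tumour 4 at the bottom, and a log2 fold change of 0.99 (SE 0.43, adjusted p = 0.128). The genes are close copies that lie next to each other, so that their probes may share signal. The cathepsin genes Ctss, Ctsc and Ctsb, which encode cysteine proteases of lysosomes, had log2 differences of 0.40 (adjusted p = 0.0967), 0.26 (adjusted p = 0.185) and 0.24 (adjusted p = 0.144), with SDs of 0.34 or less in each genotype.

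The NADPH oxidase makes superoxide in phagocytes, and of its 3 genes 0 passed, in limma as in the adjusted unmoderated test. In limma 14.8% of all genes passed, so that 3 genes cannot set the group apart. Cybb, the catalytic subunit, had a log2 fold change of 0.48 (adjusted p = 0.122) with an unadjusted p of 0.0358, and the cytosolic subunit genes Ncf1 and Ncf4 had differences of 0.34 (adjusted p = 0.180) and 0.25 (adjusted p = 0.362). The Ezh2-/- values of Cybb ran from 7.75 to 8.42 and the Ezh2+/+ values from 7.06 to 8.18. For Cybb the call was made without Ezh2+/+ tumour 2 (adjusted p = 0.0440) and after median centring, and for Ncf1 after median centring.

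Arg1 had the largest fall of the 40 genes and the smallest p. It encodes arginase, which turns arginine into ornithine and urea and is used in mice to mark alternatively activated and tumour-associated myeloid cells. The level was 6.10, 6.70, 6.83, 6.01 and 6.82 in Ezh2-/- and 7.93, 7.48, 8.23, 8.54 and 8.45 in Ezh2+/+ tumours. The highest Ezh2-/- tumour, at 6.83, was below the lowest Ezh2+/+ tumour, at 7.48, and Ezh2-/- tumours 1 and 4 were lowest. The means were 6.49 ± 0.40 (SD, n = 5) against 8.12 ± 0.43 (SD, n = 5), a log2 fold change of −1.63 (SE 0.23, adjusted p = 0.00111), which is 3.10-fold lower. The call held in 10 of 10 fits without a single tumour and in the other alternatives run, with adjusted p of 0.000555 to 0.0154. Which cells of the tumours made this RNA was not tested.

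Nos2, the inducible nitric oxide synthase, which competes with arginase for arginine, was at 4.52, 4.25, 4.86, 4.73 and 4.90 in Ezh2-/- and 4.82, 4.70, 4.93, 5.26 and 5.09 in Ezh2+/+ tumours. Only Ezh2-/- tumours 1 and 2 were below the Ezh2+/+ range. The log2 fold change was −0.31 (SE 0.15, adjusted p = 0.168), with a 95% interval of −0.63 to 0.02. Cd80 and Cd86, the ligands by which antigen-presenting cells co-stimulate T cells, had differences of 0.64 (adjusted p = 0.0739) for the first and 0.15 (adjusted p = 0.654) for the second on the log2 scale. Ezh2-/- tumours 1 and 4 were highest for Cd80, at 5.51 and 5.74, and Ezh2-/- tumour 5 for Cd86, at 6.04. Cd80 passed after quantile normalization or median centring, without Ezh2-/- tumour 3 and at the unadjusted thresholds of the unmoderated test. The sign for Cd86 turned without Ezh2-/- tumour 5.

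Within the Ezh2-/- tumours, the genes split by which tumour was highest. Ezh2-/- tumour 5 was highest in 20 of 40 genes, among them the Fc receptor and adaptor genes, Folr2, Timd4, Lyz1, Lyz2 and Clec7a. Ezh2-/- tumour 4 was highest in 9, among them Csf1r, Maf, Adgre1, Laptm5, Mrc1 and Siglec1, and Ezh2-/- tumour 2 in 7, with Gpnmb, Csf1, Cybb and the cathepsin genes. Ezh2-/- tumour 1 led in 3 and Ezh2-/- tumour 3 in 1, which was Arg1. Of the Ezh2+/+ tumours, 3 and 4 were lowest in 17 and 16 of 40 genes. The mean log2 value of the 40 genes was 6.64, 6.58, 6.26, 6.62 and 6.90 in Ezh2-/- tumours 1 to 5 and 6.37, 6.42, 5.93, 5.95 and 6.24 in Ezh2+/+ tumours 1 to 5. By this mean Ezh2-/- tumour 3 lay among the Ezh2+/+ tumours and Ezh2-/- tumour 5 above the other Ezh2-/- tumours.

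**Figure D3:**
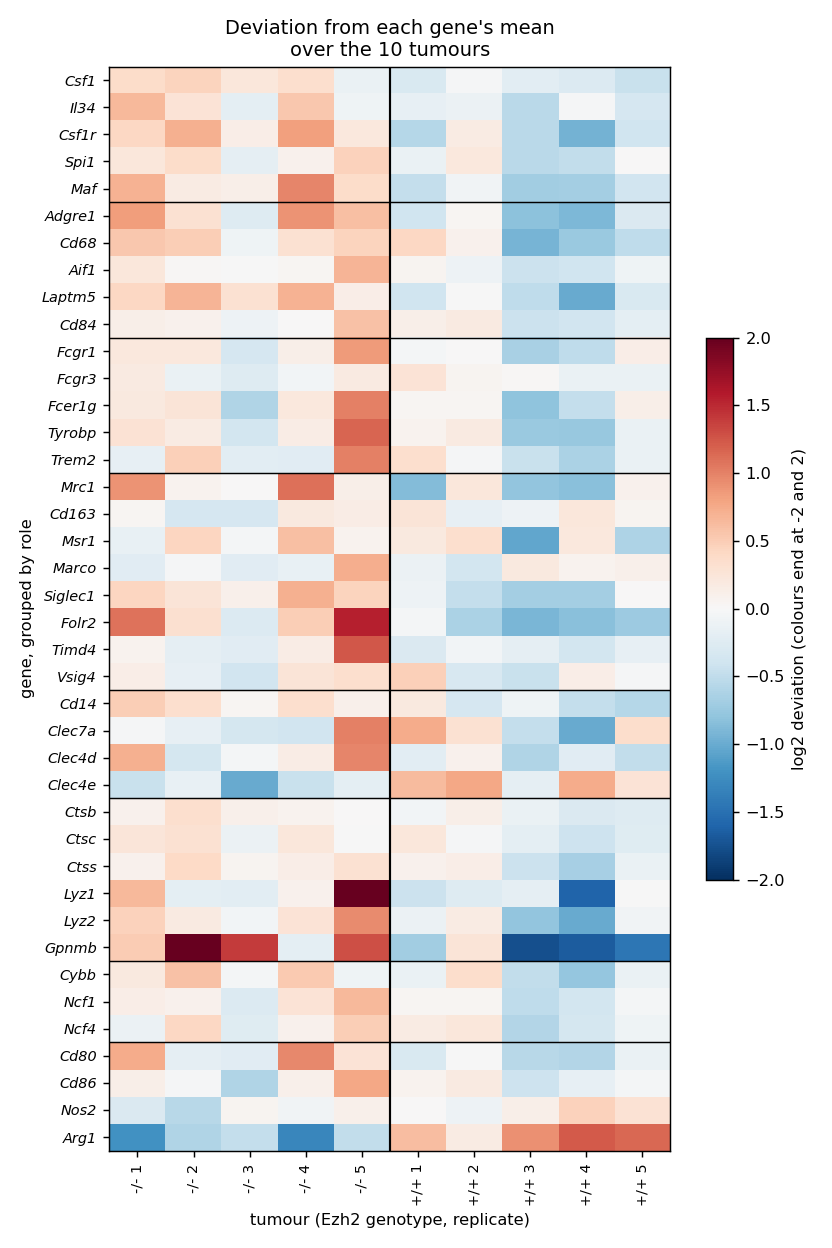
Deviation of each tumour (columns) from the mean of all 10 tumours for each of the 40 genes (rows, grouped by role), in log2 units from blue (below) to red (above). Ezh2-/- tumour 5 is reddest in the Fcer1g and Tyrobp rows, Ezh2-/- tumours 1 and 4 in Mrc1 and Adgre1, and the Arg1 row runs the opposite way from Csf1r.

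The tumours that were high in these genes also differed in markers of other cells. Markers of T and NK cells had a mean log2 value of 5.77 in Ezh2-/- tumour 5, against 4.82 to 5.14 in the other Ezh2-/- tumours and at most 4.80 in any Ezh2+/+ tumour. Markers of B cells and plasma cells were at 5.87 in that tumour, against 4.46 to 5.15 in the other Ezh2-/- and 4.23 to 5.31 in Ezh2+/+ tumours. Skeletal muscle markers were at 8.39 and 7.25 in Ezh2-/- tumours 1 and 5, against at most 5.00 in the other 8 tumours. Of 11 T and NK cell markers, 3 were higher and 1 lower (27.3% and 9.09%, against 7.29% and 7.56% of all genes). Cd4, the T helper cell co-receptor, spanned 5.78 to 7.16 in Ezh2-/- and 4.69 to 5.34 in Ezh2+/+ tumours and differed by 1.5 (SE 0.26, adjusted p = 0.00415). Cd3e and Cd3g, chains of the T cell receptor complex, rose by 1.10 and 1.25, and Prf1, the perforin of cytotoxic cells, fell by 0.51. The Cd3e and Cd3g calls were both lost after cyclic loess and in the adjusted unmoderated test, and Cd3g also without Ezh2-/- tumours 1 and 5 together. Without a single tumour, Cd3e stayed called in 8 of 10 fits and Cd3g in 6. T cells use Maf, and their part in its rise was not tested. The part of these lists in the values of the 40 genes was not tested. Without Ezh2-/- tumours 1 and 5 together, 7 of the 40 genes were higher and 2 lower, against 10.6% and 7.07% of all genes.

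Genes shared by all leukocytes were in part higher. Of 10 measured pan-leukocyte markers, 2 were higher and 8 did not pass, with a median log2 fold change of 0.37. The 2 were Itgb2 and Cytip, and 0 of 10 passed after quantile normalization, after cyclic loess, in the adjusted unmoderated test or without Ezh2-/- tumours 1 and 5. Without a single tumour, Itgb2 stayed called in 4 of 10 fits and Cytip in 2. Ptprc, the CD45 phosphatase, spanned 6.28 to 6.90 in Ezh2-/- and 5.58 to 6.49 in Ezh2+/+ tumours and differed by 0.55 (SE 0.18, adjusted p = 0.0582). Of the other cell type lists, 8 of 10 fibroblast markers (80.0%) and 6 of 9 endothelial markers (66.7%) were higher, with medians of 1.54 and 0.67. Of 9 markers of mammary epithelium 0 passed, against 14.8% of all genes in either direction, with a median of 0.03. Of these 9, 3 had an unadjusted p under 0.05 in limma, against 33.5% of all genes. The mean log2 value of the fibroblast markers was 7.13 to 8.41 in Ezh2-/- and 5.54 to 6.93 in Ezh2+/+ tumours, that of the endothelial markers 5.91 to 6.53 and 5.35 to 5.80, and that of the epithelial markers 8.74 to 9.20 and 8.71 to 9.11. The part of fibroblasts and endothelium in genes they share, such as Csf1 and Mrc1, was not tested. Nor was it tested whether the epithelium, where Ezh2 was deleted, made Csf1 or Il34 RNA.

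**Figure D4:**
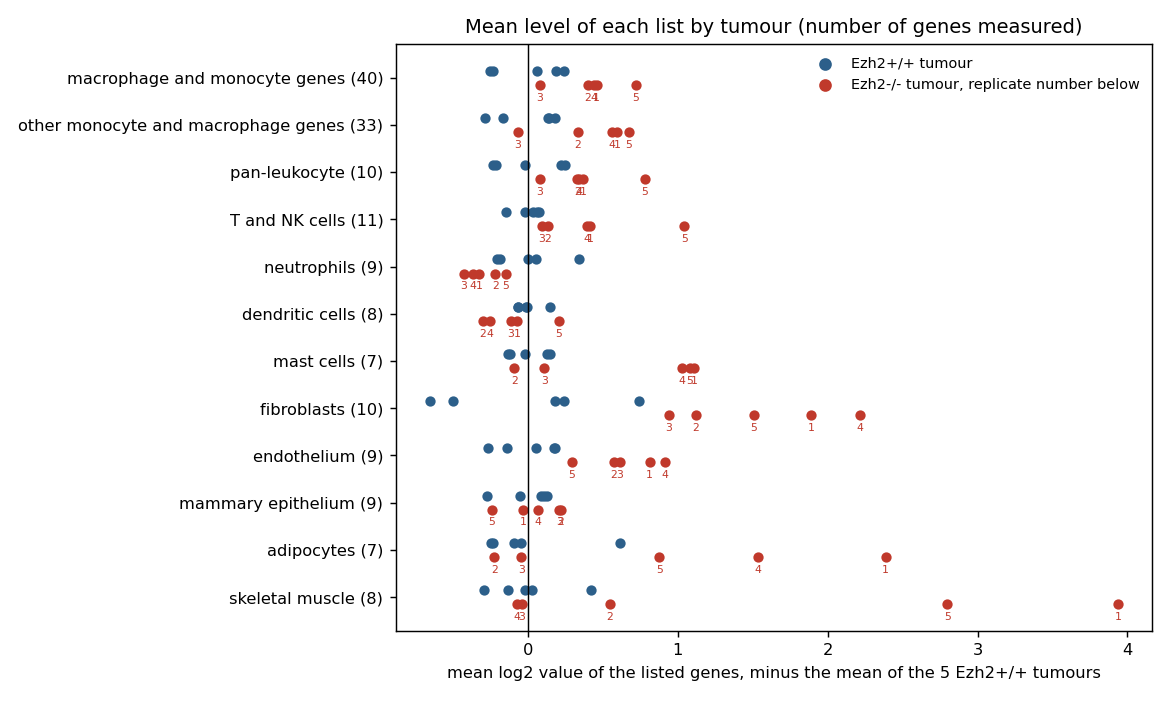
Mean log2 value of each marker list in each tumour, minus the mean of the 5 Ezh2+/+ tumours, with Ezh2+/+ tumours in blue and Ezh2-/- tumours in red (numbered by replicate). The 40 macrophage and monocyte genes overlap between genotypes through Ezh2-/- tumour 3, the T and NK cell, fibroblast and endothelial lists do not overlap, and skeletal muscle stands out in Ezh2-/- tumours 1 and 5.

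Further genes of monocytes and macrophages, outside the 40, were in part higher. Of 33 measured, 7 were higher (21.2%), 0 lower and 26 did not pass, with a median log2 fold change of 0.49. Over all genes, 7.29% were higher and 7.56% lower. In limma, 17 of 33 had an unadjusted p under 0.05, against 33.5% of all genes. Stab1, a scavenger receptor that sinusoidal endothelium also expresses, spanned 6.19 to 7.09 in Ezh2-/- and 5.17 to 6.02 in Ezh2+/+ tumours and differed by 1.13 (SE 0.19, adjusted p = 0.00325). C1qc, a chain of complement C1q, and Slc11a1, a metal transporter of phagosomes, rose by 0.76 and 0.67, and both calls were lost after quantile normalization and without Ezh2-/- tumours 1 and 5. Of 10 transcription factor genes, Runx1, at 1.16, and Irf8, at 0.39, were higher and 8 did not pass. Of 7 other genes of colony-stimulating factors and their receptors, Csf2ra was higher at 0.61 and the ligand gene Csf2, which encodes GM-CSF, lower at −0.40, calls that were also lost after quantile normalization. Runx1 was not called without Ezh2-/- tumour 3 or 4 or in the adjusted unmoderated test, and Irf8 without Ezh2-/- tumour 1 or 4 or Ezh2+/+ tumour 3 or 4 or without Ezh2-/- tumours 1 and 5. With the mean of its probe sets, the log2 difference of Irf8 was 0.14 (adjusted p = 0.357). The call was lost for Csf2ra in 6 of 10 fits that left a tumour out.

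Genes that act with these were also mixed. Of 18 genes of ITAM and Fc receptor signalling, 5 rose, 2 fell and 11 did not pass, with a median of 0.34. The shares were 27.8% higher and 11.1% lower, against 7.29% and 7.56% of all genes. The lower genes were Oscar, at −0.58, and Trem1, a receptor of neutrophils and monocytes, also at −0.58, and among the higher genes was Nckap1l, a part of the actin-regulating WAVE complex, at 0.72. After cyclic loess the calls for Oscar, Trem1 and Nckap1l were lost, and that for Trem1 also after quantile normalization. Of 20 other lysosome genes 19 did not pass and 1 was higher (5.0%, against 7.29% of all genes). This was Ctsk, a collagen-degrading cathepsin of osteoclasts and fibroblasts, at 1.56 (SE 0.31, adjusted p = 0.00766). Of 22 other innate sensors 4 were higher (18.2%), with Tlr7 at 0.61, Tlr2 at 0.40 and Tlr13 at 0.64. Both Tlr2 and Tlr13 stayed called in 3 of 10 fits that left a tumour out. Of 8 other oxidase genes 1 was higher (12.5%), Rac2, at 0.79. Tlr7 was not called without Ezh2-/- tumour 2 or 4 or Ezh2+/+ tumour 4 or 5, and Rac2 without Ezh2-/- tumour 1 or Ezh2+/+ tumour 3 or 5. Of 26 activation and lipid-handling genes, 23 did not pass, 2 rose and 1 fell (7.69% and 3.85%, against 7.29% and 7.56% of all genes). These were Ptgs2, the inducible cyclooxygenase, at 1.5 (SE 0.31, adjusted p = 0.00926), Retnla, a marker of alternative activation in mice like Arg1, at 1.72 (SE 0.44, adjusted p = 0.0232), and Chil3, another such marker, at −0.57 (adjusted p = 0.0315). The Retnla call was lost without Ezh2-/- tumour 1 or 4, without tumours 1 and 5 together and in the adjusted unmoderated test. That for Chil3 was lost after quantile normalization, median centring and cyclic loess and in the unmoderated test, adjusted or not. Without a single tumour, Chil3 stayed called in 4 of 10 fits. Retnla rose where Arg1 fell. Adipocyte markers had their highest means, 7.49 and 6.64, in Ezh2-/- tumours 1 and 4, and their part in Retnla was not tested. Retnla, Chil3, Oscar, Trem1 and Csf2 were among the 40% dimmest genes.

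Promoters are shown for called genes whose sequence bears the letters of a motif, because PU.1, the product of Spi1, binds the PU box that many macrophage genes carry near their start. RefSeq promoters (GRCm38.p6) were at hand for 26 of the 40 genes, and the 250 bases before the start were searched on both strands for the PU box GAGGAA, the AP-1 site TGACTCA, to which Maf proteins can also bind, and the E-box CACGTG. The motifs were chosen after the data were seen and after several others had been looked at. The PU box letters stood in 14 of 26 genes (53.8%), against 25.9% of all 27025 genes of the table, the AP-1 letters in 3 (11.5%, against 5.16%) and the E-box letters in 0 (against 6.86%). Among the 5 called genes with a promoter they stood in Laptm5 and Clec4e, of which the first rose and the second fell, and Folr2 held the AP-1 letters. Mrc1, which did not pass, is added for its 3 copies of the PU box. The windows are chr4:130913066-130913315 (plus strand) for Laptm5, chr6:123289872-123290121 (minus strand) for Clec4e, chr7:101845332-101845581 (minus strand) for the second start of Folr2 and chr2:14229164-14229413 (plus strand) for Mrc1. Each is written 5′ to 3′ along the gene up to its start, and capitals mark the motif letters or their reverse complement.
Laptm5: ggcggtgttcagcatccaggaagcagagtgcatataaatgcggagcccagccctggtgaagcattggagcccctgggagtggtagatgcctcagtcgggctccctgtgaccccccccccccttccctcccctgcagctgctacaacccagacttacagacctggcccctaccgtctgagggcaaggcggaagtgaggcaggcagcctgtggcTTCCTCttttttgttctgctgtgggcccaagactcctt
Clec4e: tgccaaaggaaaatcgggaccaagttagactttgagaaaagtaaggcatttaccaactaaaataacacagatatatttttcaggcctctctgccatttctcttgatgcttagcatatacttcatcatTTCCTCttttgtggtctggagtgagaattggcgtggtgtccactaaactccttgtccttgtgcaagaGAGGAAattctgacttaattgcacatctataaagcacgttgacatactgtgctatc
Folr2: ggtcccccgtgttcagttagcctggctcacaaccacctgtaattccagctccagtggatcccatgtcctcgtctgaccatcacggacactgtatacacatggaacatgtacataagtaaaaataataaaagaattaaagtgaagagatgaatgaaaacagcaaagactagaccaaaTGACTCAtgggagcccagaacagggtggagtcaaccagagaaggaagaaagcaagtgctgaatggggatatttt
Mrc1: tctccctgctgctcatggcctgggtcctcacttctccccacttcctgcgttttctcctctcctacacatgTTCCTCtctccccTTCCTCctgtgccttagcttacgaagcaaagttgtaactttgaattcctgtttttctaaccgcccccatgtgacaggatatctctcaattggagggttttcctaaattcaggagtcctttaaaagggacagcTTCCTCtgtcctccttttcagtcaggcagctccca
In Laptm5 the match begins 38 bases before the start, in Clec4e at 123 and 56, in Folr2 at 74 and in Mrc1 at 180, 167 and 35. A match of 6 or 7 letters is a description of the sequence and not a site of binding.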

How the data were processed

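Total RNA of 5 Ezh2-/- and 5 Ezh2+/+ Tet-ON PyVmT tumours was read on 10 arrays (Affymetrix Mouse Gene 2.0 ST), each for 1 tumour. The authors deposited gene-level normalized values from Affymetrix Expression Console, and named Transcriptome Analysis Console for their test, which was an analysis of variance per gene. The algorithm and the log base are not given in the sources used here, and the deposited values, from 0.595 to 13.2, were taken as log2. Array medians differed between genotypes, and no further scaling was applied.

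Of 41345 probe sets, 23521 had a single symbol in GEO's annotation of the array, 1820 had several and 16004 were not listed. Each of 22180 genes was read from its brightest probe set by the mean of 10 arrays, with no filter on dim genes. Genotypes were compared with limma 3.58.1 in R 4.3.3 (default prior, two-sided, Benjamini-Hochberg over all genes, threshold 0.05), which was tested on simulated data. No set test was run. Per-tumour values are given for genes that passed, the 3 largest rises and falls besides, the Csf1r ligands and the lysozymes. Up to 3 genes with the smallest p, and Ptprc, are named from each other list, and S100a8 and Cd3g were added after their values were seen. The genes and lists were chosen with earlier results of these data known. Alternatives were quantile normalization, median centring, cyclic loess, an intensity trend with a robust prior, the unmoderated test per gene that the study's methods name (equal variances), array weights, a filter on the 40% dimmest genes, averaged probe sets, a replicate block and leaving out tumours. Python 3.11.15 and matplotlib 3.10.9 drew the figures.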

Additional observations from a re-analysis of the deposited data

Results flagged for a closer look

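In 80 groups of 5 tumours (40 genes in 2 genotypes), 4 held a tumour far from the other 4 by Dixon's ratio, where chance flags about 5% of groups. In 3 of them it was Ezh2-/- tumour 5, which was high. Marco was at 5.91 there, against 4.95 to 5.15 in the other Ezh2-/- tumours. Timd4 was at 5.02, against 3.55 to 3.92, and Clec7a at 7.05, against 5.66 to 6.02. The fourth was Ezh2+/+ tumour 4, with Lyz1 at 3.26 against 4.42 to 4.85 in the other Ezh2+/+ tumours. In Ezh2-/- tumour 5 the mean log2 value of markers of T and NK cells was 5.77 and that of skeletal muscle markers 7.25. Their part in these values was not tested.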

How the results depend on the processing

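The number of the 40 genes higher was 22 after median centring, 5 in the adjusted unmoderated test and 14 with the replicate number as a block, against 9 as reported, and it was 6 to 11 without a single tumour. The number lower was 1 after quantile normalization, cyclic loess, the adjusted unmoderated test or leaving out the 40% dimmest genes, where Clec4e was lost or not tested, against 2, and 2 in each fit without a single tumour. At an unadjusted p under 0.05 in the unmoderated test with a change of over 1.5-fold, 11 were higher and 2 lower. Over all genes, the number higher was 5219 after median centring, 862 in the adjusted unmoderated test, 1063 at its unadjusted thresholds, 2434 with array weights, 2552 with the block and 748 to 2519 without a single tumour, against 1617. The number lower was 882 after quantile normalization, 927 after median centring, 996 after cyclic loess, 950 at the unadjusted thresholds, 535 without the dimmest genes and 983 to 1920 without a single tumour, against 1676. The cause of these differences in count was not tested. Csf1r, Maf, Laptm5, Siglec1 and Arg1 kept their calls in each alternative run. Of the 29 genes that did not pass, 13 were called after median centring and 5 with the block.

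The sign changed in genes near 0 that did not pass. Fcgr3 turned to 0.14 after median centring and was at −0.0809 to 0.0328 without a single tumour. Cd163 turned to 0.0458, 0.0615 and 0.0054 after quantile normalization, median centring and cyclic loess. Marco turned to −0.0604 with array weights and −0.11 without Ezh2-/- tumours 1 and 5, and was at −0.13 to 0.11 without a single tumour. Vsig4 turned to −0.0638 without Ezh2-/- tumours 1 and 5 and was at −0.0304 to 0.20 without a single tumour. Clec7a turned to −0.0146 after quantile normalization, −0.0774 after cyclic loess, −0.0439 with array weights and −0.28 without Ezh2-/- tumours 1 and 5, and was at −0.21 to 0.23 without a single tumour. Cd86 turned to −0.10 without Ezh2-/- tumours 1 and 5 and was at −0.0288 to 0.31 without a single tumour.

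Both genotypes carry replicate numbers 1 to 5, but the deviations of same-numbered tumours from their group means correlated at 0.0268, 0.105, 0.175, −0.0417 and 0.34, so that the numbers were not taken as pairs. With the block, 11 of the 11 called genes stayed called. Of 54 other listed genes that passed, 38 passed after quantile normalization, 30 after cyclic loess and 25 in the adjusted unmoderated test. The number of arrays limits the precision, and no detection call was used, so that dim genes such as Vsig4 may have no measured level.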

Other observations

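Among the other leukocytes, 1 of 7 mast cell markers was higher and 1 lower, with a median log2 fold change of 0.63, and their mean log2 value was 4.31 to 4.39 in Ezh2-/- tumours 1, 4 and 5 against 3.19 and 3.39 in Ezh2-/- tumours 2 and 3. Of 8 dendritic cell markers 1 was higher and 1 lower (12.5% each), with a median of −0.07. For mast cells each share was 14.3%, against 7.29% higher and 7.56% lower over all genes. Of 7 adipocyte markers 0 passed in limma, against 14.8% of all genes, and 4 had an unadjusted p under 0.05, against 33.5%. Their median was 0.88, with a mean log2 value of up to 7.49 in Ezh2-/- tumour 1.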
